A study of Brassica napus with 24 samples.

Results

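In leaves of rapeseed (*Brassica napus*), 200 genes were selected that became more abundant as the plants aged and whose average level at the late harvests was nearly the same with and without water deficit (WD). Their median abundance was between 20.4 and 38.0 CPM (read pairs on a gene scaled to the library total) in the 20 d controls, against 2.94 to 4.23 CPM in the 5 d controls. Those values chose the genes. Between 11 d WD and 5 d WD leaves, which the selection had not used, 197 of the 200 genes had a positive log2 change and the median was 1.03, but edgeR's test called none of them at an adjusted p of at most 0.05, against 0.301% of all genes tested called higher. At an unadjusted p of at most 0.05 it counted 107 of the 200 genes higher, against 7.11% of all genes, and DESeq2 called 56 at an adjusted p of at most 0.05. In 11 d leaves, 2 of the 200 genes were called lower in WD than in controls, against 7.72% of all genes tested, and none was called higher. The calls rest on a spread estimated over all libraries, including those that chose the genes. Equality of WD and control leaves at 18 d was a property of the averages and not of the single libraries, since 2 of the 18 d WD libraries lay above the controls and the third lay far below them.

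The samples were leaf blades of wild type rapeseed, cultivar Trezzor, grown in a greenhouse, and the leaves taken had developed after the water regimes were set apart. Polyadenylated RNA of 24 samples was sequenced, in 8 groups of 3 samples labelled as biological replicates, and the methods describe each sample as a pool of plants. WD plants received no water until the soil had dropped below 50% of field capacity (FC, the water a pot holds after draining; 5 d WD) or to 25% FC (11 d WD). Others were then held at 50% FC (18 d WD) or at 25% FC (20 d WD), and each WD group had its own controls kept at 80% FC. Days are counted from the end of full watering, 30 days after sowing. The name 11 d follows the methods, whereas the labels give these 6 samples the same harvest date as the 5 d samples, and the 18 d samples are placed by their label date alone. Treatment and depth of soil drying changed together with plant age, so the WD groups of different harvests differ in both.

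Members were chosen by measured values, in this order. CPM was calculated from the read pairs counted on the gene strand. Of 101040 listed genes, 43776 had at least 1 CPM in every 20 d control, and 18931 of these were also higher in every 20 d control than in every 5 d control. The mean WD level lay within 0.3 log2 units of the mean control level at both 18 d and 20 d for 2756 of them, after 0.5 was added to each mean. The 200 with the highest log2 ratio of 20 d to 5 d controls were kept. The contrasts between 20 d and 5 d controls, and between WD and controls at 18 d and 20 d, therefore chose the genes and are described below without a test. All 18 d libraries entered through the last of these, so comparisons of an 18 d group with an earlier harvest are descriptions too, and fold changes of single genes in them are given with no p.

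Leaf ageing is an ordered programme. An expanding leaf imports sugars and builds its photosynthetic apparatus, a mature leaf exports sugars, and an ageing leaf dismantles chloroplasts and moves nitrogen and minerals to younger organs. In Arabidopsis, transcription factors of the WRKY and NAC families are known regulators of the later steps, and several respond to drought as well. Rapeseed carries A and C subgenomes, so that many genes exist as closely similar copies.

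The deposited files give gene identifiers without names. A supplementary table of the study, of which 1999 genes were held here, listed 9 of the 200 genes and gave a protein domain or family for 6. That table holds genes chosen by the study for a response to WD in these same samples, so the 6 are not a random sample of the 200. The 6 comprise BnaA05g34850D (a WRKY DNA-binding protein), BnaCnng64120D (leucine-rich repeats, which often bind other proteins), BnaA02g35970D (an NmrA-like protein with a fold that binds NAD(P)), BnaA02g35010D (a malic enzyme, which converts malate to pyruvate), BnaA05g32040D (a lipase-type alpha/beta hydrolase) and BnaA09g31080D (a galactose oxidase beta-propeller). A RefSeq gene table (assembly Da-Ae) held 12 of the 200 genes by symbol, but it gives no product names. The functions of the other 194 genes were not known here.

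The ratio of 20 d to 5 d controls had a median of 2.48 on the log2 scale over the members, with a lowest value of 1.67 and a highest value of 6.07. It reached 4-fold in 143 members, 8-fold in 72, 16-fold in 33 and 32-fold in 15. Mean levels were between 1.92 and 536 CPM in the 20 d controls (median 30.5) and between 0.0523 and 151 CPM in the 5 d controls (median 3.45). The cut at rank 200 fell in a dense stretch of values: the last genes inside it, BnaA10g20190D and BnaA09g31080D, had 1.67 and 1.67, and the first outside it, BnaAnng00990D and BnaC04g14960D, had 1.67 and 1.66, all as log2 ratios of 20 d to 5 d controls. Values on either side of the cut were nearly equal.

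By name, 101 members belonged to the A subgenome, 98 to the C subgenome and 1 to neither, and A genes made up 48.1% of all genes tested. Chromosome C05, picked here for the largest excess, held 20 members (10.0%), against 5.24% of all genes tested. Others fell short, such as C08 with 4 members (2.0%) against 4.91%, and no test was made. Reads on the opposite strand reached 10% of a gene's total in 2 members (1.0%), against 2.05% of all genes tested, so few members could be mixed up with an antisense partner. Reads placed at several loci were counted apart by the authors and made up 7.77% to 9.45% of a library, so that values of members with a near-identical copy are uncertain.

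Sequencing gave 13263953 to 31112368 read pairs on genes per library, with a median of 15710704. Of the 24 libraries, 7 lay nearer to the mean of another group than to that of the other libraries of their own group. Over all genes tested, the library labelled 11 d control replicate 1 was the farthest from its own group, with a root mean square log2 distance of 1.289 to the other 11 d controls and of 0.676 to the 5 d control mean. The library labelled 11 d control replicate 3 lay 1.226 from the other 11 d controls and 0.859 from the 20 d control mean. The library labelled 18 d WD replicate 3 lay 1.143 from the other 18 d WD libraries and 0.552 from the 11 d WD mean. Counts of members called that rest on these libraries are given with and without them. The tissue label could be checked only on 3 genes annotated as chlorophyll a/b-binding, whose summed level was 20.4 to 148 CPM in the 24 libraries. In whole leaves, fewer cells of a type and less RNA per cell cannot be told apart.

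**Figure D1:**
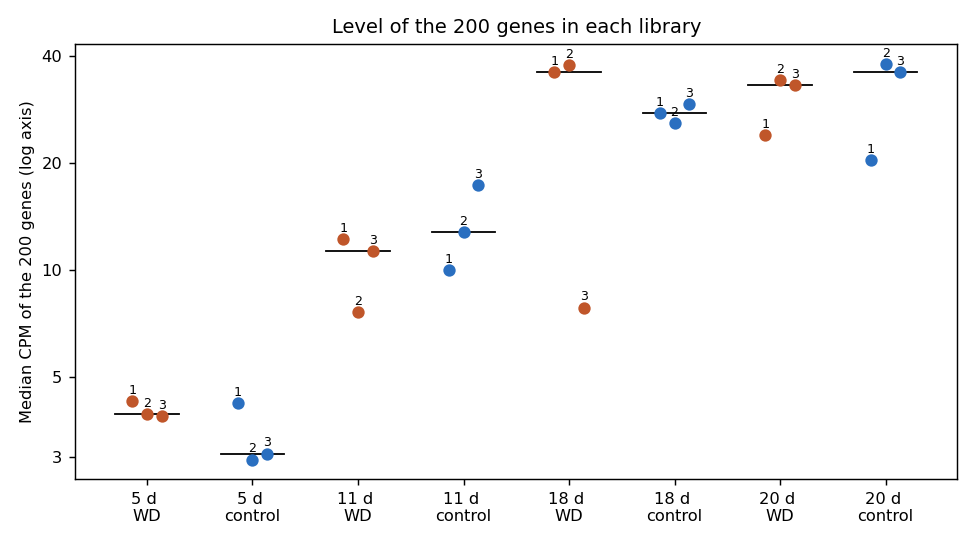
Median CPM of the 200 genes (log axis) in each of the 24 libraries, by harvest, with WD in orange and controls in blue, replicate numbers beside the points and a bar at the middle value of each group. The 11 d libraries lie between those of 5 d and 20 d, and 18 d WD replicate 3, at 7.85 CPM, lies among the 11 d libraries.

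In WD leaves, the members' median level was 4.29, 3.95 and 3.89 CPM at 5 d, 12.2, 7.62 and 11.3 CPM at 11 d, 35.9, 37.7 and 7.85 CPM at 18 d and 23.9, 34.2 and 33.0 CPM at 20 d (replicates 1, 2 and 3). In controls it was 4.23, 2.94 and 3.06 CPM at 5 d, 9.99, 12.8 and 17.3 CPM at 11 d, 27.6, 25.8 and 29.3 CPM at 18 d and 20.4, 38.0 and 35.9 CPM at 20 d. The 5 d libraries were the lowest in both regimes and the 18 d and 20 d libraries the highest, with 18 d WD replicate 3 as the one exception. Within the 20 d controls, replicate 1 was the lowest of the 3 for 173 members. Within the 11 d controls, replicate 3 was the highest for 134 members, and within the 11 d WD leaves replicate 2 was the lowest for 145.

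The order of the mean levels was 5 d, 11 d, 18 d, 20 d from low to high for 145 members in WD leaves and for 143 members in controls, against 7.2% and 19.9% of all genes tested. The rule fixed part of this order, since it placed the 20 d above the 5 d controls and tied late WD means to their controls. The 11 d values were used nowhere in the choice of members. On a scale where the mean log2 level of the 5 d controls is 0 and that of the 20 d controls is 1, the 11 d WD leaves had a median position of 0.489 over the members and the 11 d controls one of 0.550. Members were thus about midway by 11 d, but with a wide range, which was -0.24 to 0.989 in 11 d WD leaves and 0.165 to 1.49 in 11 d controls. Of the members, 12 were at 0.75 or beyond in 11 d WD leaves and 20 in 11 d controls, while 33 were below 0.25 in 11 d WD leaves and 4 in 11 d controls. The position depended little on the size of the increase: the 33 members at 16-fold or more had a median of 0.506 in 11 d WD leaves and 0.606 in 11 d controls, against 0.490 and 0.529 for the 57 members under 4-fold.

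**Figure D2:**
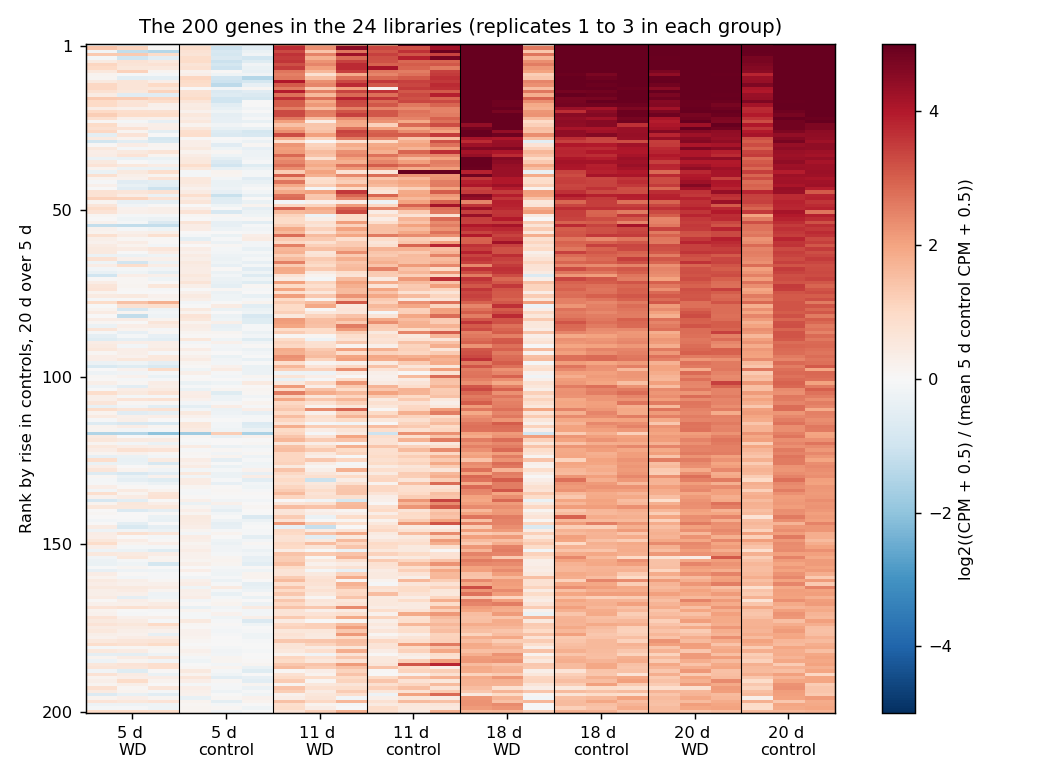
The 200 genes, from the largest rise in controls at the top (rank 1) to the smallest at the bottom (rank 200), in the 24 libraries, as log2((CPM + 0.5) / (mean 5 d control CPM + 0.5)), with colours cut at 5 in both directions. Red deepens from 5 d to 20 d in WD and control columns alike, except in 18 d WD replicate 3, the pale column.

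Members were tested between groups that the choice of members had not used, which are the 5 d WD, 11 d WD and 11 d control leaves. EdgeR's quasi-likelihood test was fitted to 54835 genes, and all 200 members passed its filter on low counts, which the level asked of the 20 d controls had ensured. Its estimate of the spread used all 24 libraries, including those that chose the members. Between 11 d WD and 5 d WD leaves, edgeR called 0 members at an adjusted p of at most 0.05, with 0.301% of all genes called higher and 0.193% lower. At an unadjusted p of at most 0.05 it counted 107 members higher and 0 lower, against 7.11% of all genes higher and 5.09% lower. The median log2 change of the members was 1.03, against 0.019 over all genes tested, and 197 members had a positive value. Every 11 d WD library lay above every 5 d WD library for 163 members (17.3% of all genes). DESeq2 called 56 members higher (1.83% of all genes), and edgeR without 18 d WD replicate 3, a library outside this comparison that shares in the estimate of the spread, called 50 (1.27% of all genes). In the list outside the window, edgeR called 0 genes higher, DESeq2 65 and edgeR without 18 d WD replicate 3 56.

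The response to WD was tested at 11 d, the one harvest at which neither WD nor control libraries had entered the choice of members. EdgeR called 0 members higher and 2 lower in 11 d WD leaves than in 11 d controls, whereas 3.6% of all genes tested were called higher and 7.72% lower. The 2 members were BnaA02g35970D (NmrA-like) and BnaA02g35010D (malic enzyme). At an unadjusted p of at most 0.05, 5 members were higher and 16 lower, against 9.86% and 15.3% of all genes. The median log2 change of the members was -0.17, with 76 of 200 above 0, and that of all genes tested was -0.001.

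The count of 2 was not stable to the libraries. Leaving out 11 d control replicate 1 gave 15 members lower and 1 higher (12.4% and 5.37% of all genes), and leaving out 18 d WD replicate 3 gave 10 lower and 1 higher (9.02% and 4.37% of all genes). No member was called lower without 11 d WD replicate 2 (3.91% of all genes), 11 d WD replicate 3 (3.0%) or 11 d control replicate 3 (1.68%), and 1 was called higher without 11 d control replicate 3 (0.998%). The members' share of lower calls thus stayed below that of all genes in each of these fits. However, the spread in each fit was estimated with 18 d libraries that the rule used. The members' coefficient of variation (SD in percent of the mean) had a median of 65.3% in 18 d WD leaves and 12.8% in 18 d controls. The low share of calls is therefore not independent of the choice of members. Their median log2 change was -0.25 without 11 d control replicate 1 and -0.41 without 11 d WD replicate 3, but 0.04 without 11 d control replicate 3 and 0.07 without 11 d WD replicate 2. DESeq2 called 6 members lower (9.42% of all genes). For comparison, the 200 genes with the largest increase with age among those outside the WD window contained 97 (48.5%) called lower in 11 d WD leaves, with a median log2 change of -2.88, and no test of the difference between the 2 lists was made. Of the other genes that met the level and 5 d steps, 16.5% were called lower. The window on late WD ratios separated these lists, and the 11 d values were not used for either. The lists also differed in the size of the increase with age. The median log2 change from 5 d to 20 d controls was 6.81 in the list outside the window and 2.51 in the members. Of that list, 62 genes were called lower without 11 d control replicate 3 (1.68% of all genes). None was called lower with the 2 groups fitted alone (1 of 50382 genes). In CPM, all 11 d WD libraries lay below all 11 d controls for 12 members and above them for 3 (8.54% and 9.81% of all genes).

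**Figure D3:**
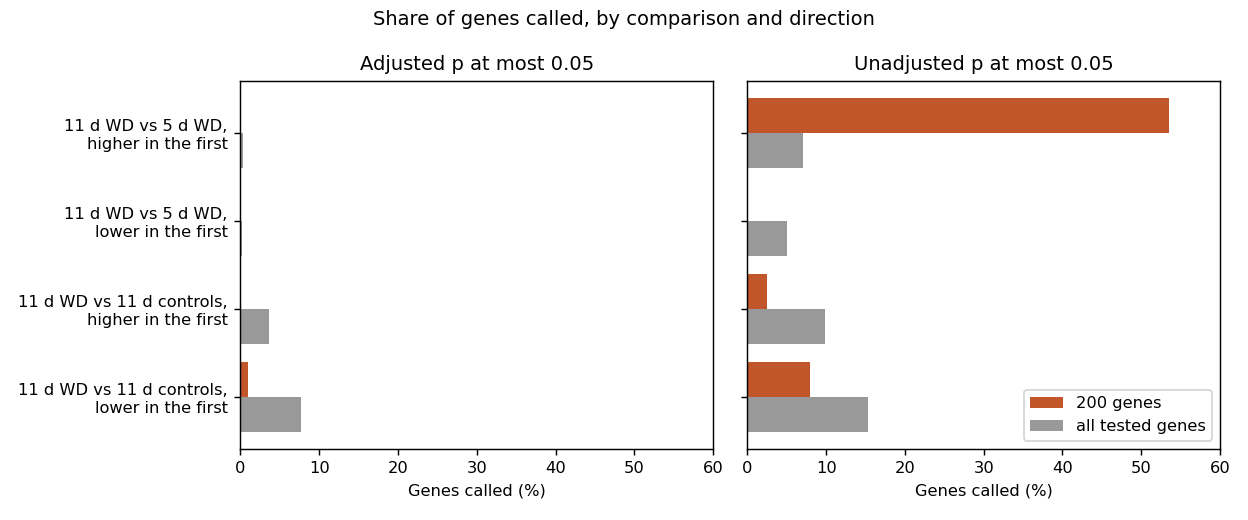
Share of genes called by edgeR's quasi-likelihood test in the 2 comparisons whose libraries the choice of members did not use, by direction, at an adjusted p (left) and an unadjusted p (right) of at most 0.05, for the 200 genes (orange) and all genes tested (grey), in percent. At the unadjusted threshold 107 of the 200 genes are higher in 11 d WD than in 5 d WD leaves, and in 11 d WD leaves against 11 d controls the shares of the 200 genes lie below those of all genes. The spread was estimated over all libraries, including those that the choice of members used.

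The 18 d groups were set beside the earlier ones as a description. The rule held the 18 d WD means within 0.3 log2 units of the 18 d controls in genes picked for a high late level, so the counts that follow were partly set by the choice of members and nothing is read from them. Between 18 d WD and 5 d WD leaves, edgeR called 186 of the 200 members higher and 0 lower, whereas 8.05% of all genes tested were called higher and 2.55% lower. At an unadjusted p of at most 0.05 it counted 196 members higher and 0 lower, against 15.7% and 10.4% of all genes. The median log2 change was 2.53 over the members and -0.001 over all genes tested. In CPM, every 18 d WD library lay above every 5 d WD library for 176 members, a pattern shown by 14.6% of all genes tested. Of the genes that passed the same level and 5 d steps but were not members, 17.9% were called higher in 18 d WD leaves. DESeq2 called 192 members and 10.1% of all genes.

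The number of calls between 18 d WD and 5 d WD leaves moved with single libraries, for the members as for all genes. Without 18 d WD replicate 3, edgeR called 195 members (13.1% of all genes), and all members but 1 had 18 d WD values above every 5 d WD value (23.5% of all genes). Without 18 d WD replicate 1 it called 123 members (3.43% of all genes), without 18 d WD replicate 2 it called 113 (2.81%), and without 5 d WD replicate 2 it called 122 (3.3%). Fitted on the 6 libraries of these groups alone it called 1 of 196 members tested, and 22 of 49161 genes (0.0448%).

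Between 18 d and 11 d controls, where the 18 d controls had entered the rule as well, edgeR called 0 members and 0.0% of all genes tested. At an unadjusted p of at most 0.05 it counted 105 members higher and 2 lower, against 4.39% of all genes higher and 5.14% lower. The median log2 change was 1.06 over the members and -0.043 over all genes tested. Every 18 d control lay above every 11 d control for 145 members (9.59% of all genes). DESeq2 called 2 members (0.193% of all genes), and edgeR without 18 d WD replicate 3 called 23 (0.315% of all genes). Without 11 d control replicate 1 it called 0 members higher and 2 lower (26 and 260 of 54835 genes). Without 11 d control replicate 3 it called 0 members (31 genes higher and 5 lower).

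The label that the genes are untouched by deficit was examined library by library. Relative to the mean log2 level of the 18 d controls, the members had a median of 0.43 in 18 d WD replicate 1, 0.38 in replicate 2 and -1.69 in replicate 3. Replicates 1 and 2 both lay above every 18 d control for 105 members, and replicate 3 lay below every 18 d control for 189. An average near the controls was thus made of values on both sides of them. The shares over all genes were not counted, so the counts of 105 and 189 are not shown to be particular to the members. Over all genes tested, replicate 3 also lay apart from the other 18 d WD libraries, at a root mean square log2 distance of 1.143. With replicate 3 left out, the median log2 ratio of 18 d WD to control means was 0.45, and 64 members stayed within 0.3 of 0, 136 were above and 0 below. The whole rule applied without that library kept 64 of the 200 genes.

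**Figure D4:**
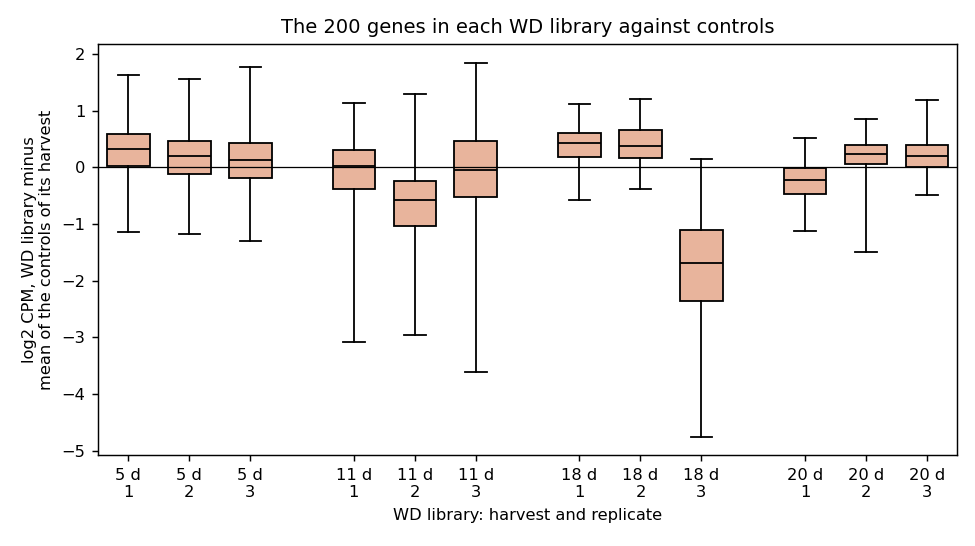
Log2 level of the 200 genes in each WD library minus the mean log2 level of the 3 controls of the same harvest, with 0.5 CPM added. Boxes span the quartiles, the line is the median and whiskers reach the lowest and highest gene. The medians of 18 d WD replicates 1 and 2 are 0.43 and 0.38, that of replicate 3 is -1.69, and those of 20 d WD lie between -0.22 and 0.23.

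At 20 d the libraries were closer together. The members' median log2 difference from the mean 20 d control was -0.22 in 20 d WD replicate 1, 0.23 in replicate 2 and 0.20 in replicate 3. All 20 d WD libraries lay above all 20 d controls for 3 members and below them for 2, and the share over all genes was not counted. WD and control ranges thus overlapped for 195 members at 20 d, as the choice of members favours.

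The ratios also depended on how libraries were scaled. TMM factors, which align the bulk of genes between libraries, averaged 0.923 in 18 d WD and 1.10 in 18 d controls, and 0.894 in 20 d WD and 1.12 in 20 d controls. Scaling by them raised the members' WD to control ratios by 0.28 log2 units at 18 d and by 0.32 at 20 d. Medians were then 0.29 at 18 d, with 99 members above the window and 0 below, and 0.34 at 20 d, with 110 above and 0 below. The rule on TMM-scaled CPM kept 46 of the 200 genes, and 28 were kept both there and without 18 d WD replicate 3. On that scale the genes stood somewhat above the controls in WD leaves, whereas on library totals they stood level with them. Whether the genes counted as unchanged by WD thus depended on the scaling and, at 18 d, on replicate 3.

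At 5 d the means of WD leaves were above those of controls for 136 members. The members' median log2 difference from the mean 5 d control was 0.33 in 5 d WD replicate 1, 0.20 in replicate 2 and 0.14 in replicate 3. These values have no test because the rule asked the 5 d controls to be low.

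Members and the 18731 other genes that met the level and 5 d steps were placed on the same scale from 5 d controls (0) to 20 d controls (1). The 3 11 d controls stood at median positions of 0.441, 0.525 and 0.667 for members, and at 0.185, 0.700 and 0.955 for the other genes. Among the 11 d WD libraries the positions were 0.528, 0.337 and 0.546 for members and 0.353, 0.391 and 0.311 for the other genes. The 11 d controls were thus nearer to each other in the members than in the other genes that increased with age, a difference for which no test was made. At 18 d, WD replicate 3 stood at 0.342 for members and 0.258 for the other genes, against 1.10 and 1.10 for members and 0.395 and 0.381 for the other genes in replicates 1 and 2. Its distance from the other 18 d WD libraries was larger in the members, and no test of this was made. The rule held the members' mean 18 d WD level near that of the 18 d controls. These 18 d positions were thus partly set by the choice of members, and nothing is read from them.

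The WRKY gene BnaA05g34850D showed the largest increase with age of all members. It had 0.254, 0.0712 and 0.188 CPM in 5 d WD leaves, against 0.470, 0.302 and 0.0450 CPM in 5 d controls. At 11 d it had 4.74, 1.81 and 3.00 CPM in WD leaves, against 2.58, 28.0 and 64.7 CPM in controls. The 5 d libraries held 1 to 7 read pairs each, and at 11 d the controls of replicates 2 and 3 were far above all WD leaves while replicate 1 was among them. At 18 d it had 53.1, 79.1 and 0.833 CPM in WD leaves, against 29.6, 31.1 and 48.3 CPM in controls. At 20 d it had 40.3, 67.4 and 70.8 CPM in WD leaves, against 20.2, 55.7 and 78.5 CPM in controls. Ranges of WD and control leaves overlapped at both late harvests, and 18 d WD replicate 3 was near the 5 d level.

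The log2 change of BnaA05g34850D in 18 d WD against 5 d WD leaves was 8.15 ± 1.52 (SE, back-calculated from edgeR's F statistic). From the pooled pairs the ratio was 251, with an exact 95% interval of 127 to 582 that covers counting error alone. Its log2 change in 11 d WD leaves against 11 d controls was -3.03 ± 1.11 (edgeR adjusted p = 0.0879) and did not pass the threshold. Without 11 d control replicate 1 the edgeR adjusted p was 0.0197, and without 18 d WD replicate 3 it was 0.0146.

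The NmrA-like gene BnaA02g35970D was among the members lower in 11 d WD leaves. At 5 d it had 0.381, 1.07 and 1.51 CPM in WD leaves, against 0.537, 0.754 and 0.540 CPM in controls. In 11 d leaves the gene had 2.15, 4.04 and 1.34 CPM in WD leaves, against 1.18, 59.1 and 115 CPM in controls. The groups overlapped at 11 d, since control replicate 1 was below every WD library, and the other controls exceeded every other library of the study. In 18 d leaves the gene had 15.6, 21.4 and 0.357 CPM in WD leaves, against 11.02, 15.5 and 16.9 CPM in controls. In 20 d leaves the gene had 7.51, 14.8 and 18.6 CPM in WD leaves, against 11.6, 16.4 and 21.1 CPM in controls. WD and control values were intermingled at both late harvests, apart from 18 d WD replicate 3.

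In edgeR the log2 change of BnaA02g35970D was -4.27 ± 1.09 in 11 d WD leaves against 11 d controls (adjusted p = 0.0178). The adjusted p was 0.0584 without 11 d WD replicate 2, 0.0954 without 11 d WD replicate 3 and 0.139 without 11 d control replicate 3. Between 18 d WD and 5 d WD leaves its log2 change was 3.97 ± 1.16.

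The malic enzyme BnaA02g35010D, like the NmrA-like gene, was lower in 11 d WD leaves. At 5 d it had 3.50, 4.48 and 6.65 CPM in WD leaves, against 8.25, 5.81 and 5.93 CPM in controls. Levels at 11 d were 6.66, 5.84 and 3.38 CPM in WD leaves, against 7.96, 32.9 and 73.6 CPM in controls. The 11 d controls all lay above the 11 d WD leaves, though replicate 1 only slightly so and close to the 5 d level. Levels at 18 d were 27.2, 52.6 and 5.11 CPM in WD leaves, against 27.4, 28.3 and 20.4 CPM in controls. Levels at 20 d were 12.7, 33.5 and 26.2 CPM in WD leaves, against 21.0, 30.9 and 35.7 CPM in controls. WD and control values overlapped at both late harvests.

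For BnaA02g35010D the log2 change in 11 d WD leaves against controls was -2.76 ± 0.73 (edgeR adjusted p = 0.0209). The adjusted p was 0.0770 without 11 d WD replicate 2, 0.107 without 11 d WD replicate 3 and 0.220 without 11 d control replicate 3. Its log2 change between 18 d WD and 5 d WD leaves was 2.62 ± 0.72.

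The leucine-rich repeat gene BnaCnng64120D was close to its 5 d level in all 11 d WD leaves. At 5 d it had 0.445, 0.142 and 0.125 CPM in WD leaves, against 0.805, 0.0754 and 0.180 CPM in controls. Levels at 11 d were 0.275, 0.482 and 0.637 CPM in WD leaves, against 0.221, 2.97 and 6.13 CPM in controls. Here too the 11 d control of replicate 1 was at the 5 d level and below the WD leaves, while the other controls were above them. Levels at 18 d were 4.14, 12.0 and 0.773 CPM in WD leaves, against 5.69, 8.79 and 5.20 CPM in controls. Levels at 20 d were 5.89, 10.1 and 16.2 CPM in WD leaves, against 8.71, 11.9 and 9.79 CPM in controls. Ranges of WD and control leaves overlapped at 18 d and at 20 d.

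The log2 change of BnaCnng64120D between 18 d WD and 5 d WD leaves was 4.50 ± 1.06. At 11 d its log2 change in WD leaves against controls was -2.67 ± 0.96 (edgeR adjusted p = 0.0843). The edgeR adjusted p was 0.0167 without 11 d control replicate 1 and 0.0342 without 18 d WD replicate 3.

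The alpha/beta hydrolase BnaA05g32040D had its 11 d WD leaves above its 11 d controls, unlike the genes above. At 5 d it had 2.67, 3.63 and 3.89 CPM in WD leaves, against 2.48, 1.66 and 2.02 CPM in controls. In 11 d leaves the gene had 9.14, 6.02 and 7.58 CPM in WD leaves, against 3.10, 5.79 and 3.19 CPM in controls. No WD library overlapped the controls at 5 d or 11 d. In 18 d leaves the gene had 16.4, 13.1 and 5.06 CPM in WD leaves, against 9.03, 11.3 and 11.8 CPM in controls. At 20 d it had 10.2, 12.7 and 13.6 CPM in WD leaves, against 9.74, 15.0 and 12.3 CPM in controls. Ranges of both regimes overlapped at 18 d and 20 d.

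The log2 change of BnaA05g32040D between 18 d WD and 5 d WD leaves was 1.83 ± 0.37, and between 18 d and 11 d controls it was 1.38 ± 0.36. Its log2 change at 11 d was 0.98 ± 0.36 in WD leaves against controls (edgeR adjusted p = 0.0938), and the edgeR adjusted p was 0.0221 without 18 d WD replicate 3.

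The galactose oxidase gene BnaA09g31080D, the last gene inside the cut, had the smallest log2 change of the named genes between 18 d WD and 5 d WD leaves. At 5 d it had 9.03, 9.39 and 8.78 CPM in WD leaves, against 5.03, 3.92 and 4.41 CPM in controls. At 11 d it had 7.38, 10.96 and 16.4 CPM in WD leaves, against 8.33, 6.50 and 16.7 CPM in controls. WD leaves lay above all controls at 5 d and overlapped them at 11 d. At 18 d it had 14.7, 15.0 and 11.3 CPM in WD leaves, against 16.3, 15.9 and 12.0 CPM in controls. At 20 d it had 14.5, 12.5 and 13.6 CPM in WD leaves, against 14.8, 15.0 and 15.8 CPM in controls. Ranges overlapped at 18 d, whereas every 20 d WD library lay below every 20 d control. The log2 change between 18 d WD and 5 d WD leaves was 0.68 ± 0.31.

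**Figure D5:**
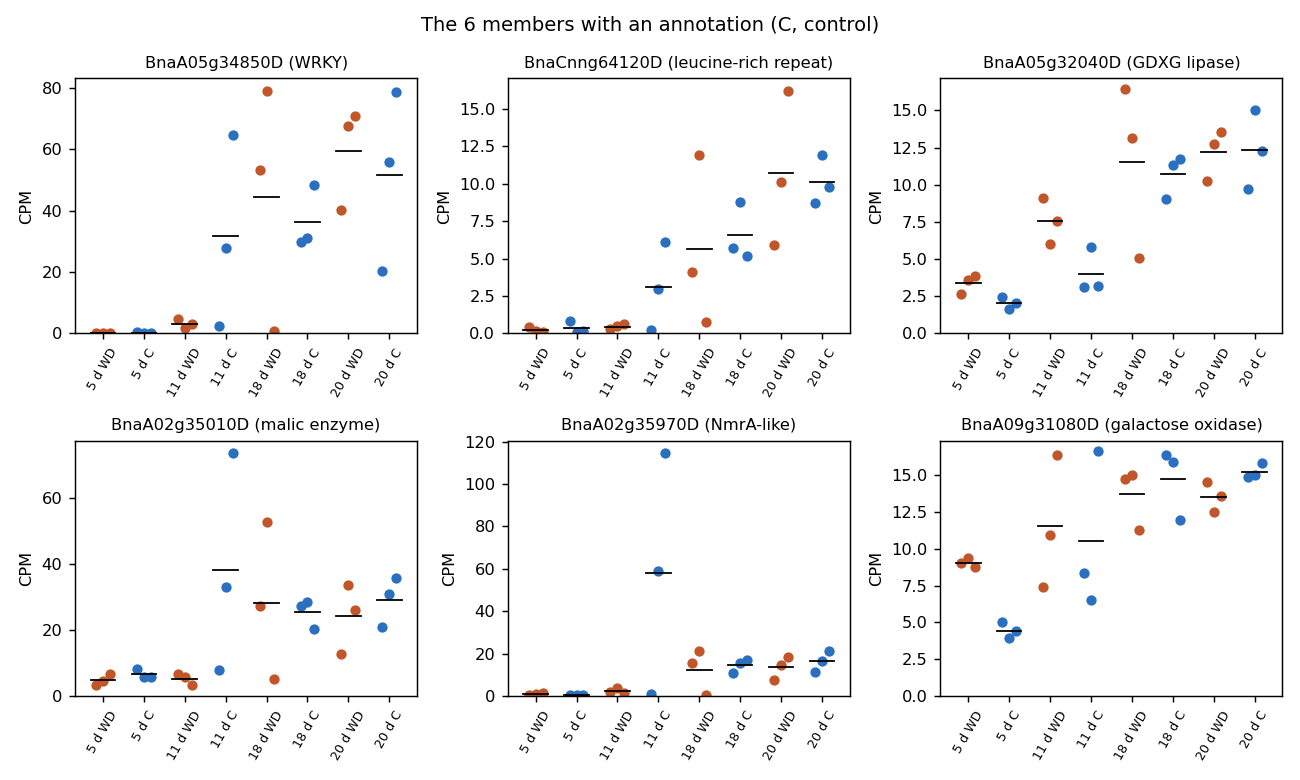
CPM of the 6 annotated members in every library (axes start at 0), with WD in orange, controls (C) in blue and a bar at the group mean. Of the 11 d controls, 2 stand far above the 11 d WD leaves for the WRKY, malic enzyme and NmrA-like genes while replicate 1 does not, and 18 d WD replicate 3 is the lowest 18 d library in all panels.

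Without annotation, the members of ranks 2 and 3 behaved alike in late leaves. BnaC03g11570D had 3.37, 2.704 and 1.07 CPM in 5 d WD leaves, against 2.21, 0.226 and 0.495 CPM in 5 d controls, and 19.2, 6.63 and 32.8 CPM in 11 d WD leaves, against 14.4, 13.4 and 26.8 CPM in 11 d controls. Its late levels were 121, 106 and 8.56 CPM in 18 d WD leaves, against 73.9, 80.6 and 85.8 CPM in 18 d controls, and at 20 d it had 74.3, 95 and 93.2 CPM in WD leaves, against 48.6, 107 and 101 CPM in controls. The WD and control ranges overlapped at all 4 harvests.

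BnaC03g21360D had 1.97, 0.640 and 0.502 CPM in 5 d WD leaves, against 3.89, 1.06 and 1.62 CPM in 5 d controls, and 26.1, 6.81 and 16.7 CPM in 11 d WD leaves, against 23.6, 33.5 and 80.9 CPM in 11 d controls. Its late levels were 131, 173 and 6.60 CPM in 18 d WD leaves, against 94.1, 100.2 and 136 CPM in 18 d controls, and at 20 d it had 84.1, 149 and 115 CPM in WD leaves, against 86.0, 168 and 160 CPM in controls. In both genes 18 d WD replicate 3 was the lowest of the 18 d and 20 d libraries. Between 18 d WD and 5 d WD leaves the log2 changes were 5.15 ± 0.92 for BnaC03g11570D and 6.76 ± 1.07 for BnaC03g21360D. Between 11 d WD and 5 d WD leaves they were 2.98 ± 0.87 (edgeR adjusted p = 0.127) and 3.88 ± 0.98 (edgeR adjusted p = 0.0814), and without 18 d WD replicate 3 the edgeR adjusted p was 0.0314 and 0.0111.

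Genes with annotations found in members, and NAC domain genes, were counted in the supplementary table. The study had chosen the genes of that table for a WD response in these samples, so their directions are not independent evidence. Of all genes tested, edgeR called 8.05% higher and 2.55% lower in 18 d WD than in 5 d WD leaves. In 11 d WD leaves against 11 d controls it called 3.6% higher and 7.72% lower. Of 28 WRKY genes, 16 were higher in 18 d WD than in 5 d WD leaves and 0 lower, and 0 were higher and 20 lower in 11 d WD leaves than in 11 d controls. Of 22 NAC domain genes, none of which was a member, 19 were higher in 18 d WD than in 5 d WD leaves, and 1 was higher and 9 lower in 11 d WD leaves than in controls. Of 83 leucine-rich repeat genes, 45 were higher and 2 lower in 18 d WD than in 5 d WD leaves, and 3 were higher and 62 lower in 11 d WD leaves than in controls. Of 5 NmrA-like genes, 4 were higher and 1 lower in 18 d WD than in 5 d WD leaves, and 4 were lower in 11 d WD leaves than in controls. Of 4 alpha/beta hydrolase fold-3 genes, 3 were higher in 18 d WD than in 5 d WD leaves. In 11 d WD leaves against controls 1 of these was lower, and their median log2 change was 0.86. Members made up 1 gene each of the WRKY, leucine-rich repeat, NmrA-like and hydrolase lists.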

How the data were processed

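Leaf RNA was sequenced as stranded paired-end libraries. Per the study's methods, the authors trimmed reads with Trimmomatic 0.36, removed ribosomal reads with sortMeRNA 2.1 and mapped and counted with STAR 2.7.3a on the Genoscope *B. napus* genome. The deposited files hold raw counts of read pairs per gene and strand, not normalised or pooled, and the gene strand column was used. Pairs at several loci are listed apart and were left out of totals.

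CPM was computed from these counts on library totals over genes. Genes with at least 0.6 CPM in 3 libraries were tested with edgeR 4.0.16 (R 4.3.3) in a quasi-likelihood model of all 24 libraries with 8 groups, a replicate term as in the study's methods and TMM scaling, with Benjamini-Hochberg adjustment. DESeq2 1.42.0 and other settings were alternatives. Values after ± (SE) are the log2 change divided by the square root of edgeR's F statistic, not a separately estimated standard error. They thus carry the same information as the test's p, also for the 18 d comparisons given with no p. Comparisons that include the 18 d libraries were planned as tests and are given as descriptions, since the rule used those libraries. The fit was tested on simulated data with known changes between 18 d WD and 5 d WD leaves. It recovered 85% of 100 genes changed 4-fold but 25% of 100 changed 2-fold, with 8 false calls among 118. No other comparison was simulated, so these rates do not carry over to 11 d WD against 5 d WD leaves.

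The members and lists were chosen with earlier results of these data known. Named genes are the annotated members, up to 2 unannotated ones of highest rank and those at the cut. P-values of the main fit rest on the spread between samples within groups, estimated over all 24 libraries and not in the compared groups alone. Intervals cover counting error only. No sequence is shown because none was matched to these genes.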

Additional observations from a re-analysis of the deposited data

How the results depend on the processing

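Where another setting moved a count by over 1.5 times, the values were as follows. Comparisons with an 18 d group are descriptions, since the rule used its libraries. Members called higher in 18 d WD against 5 d WD leaves numbered 1 with the 2 groups fitted alone (0.0448% of all genes). When single libraries were left out they numbered 113 (2.81% of all genes) to 195 (13.1%). For 18 d against 11 d controls, DESeq2 called 2 higher (0.193% of all genes) and the likelihood ratio test 1 (87 of 54835 genes). With single libraries left out, 0 to 23 were called higher and 0 to 2 lower. The 23 were without 18 d WD replicate 3 (0.315% of all genes), the 2 without 11 d control replicate 1 (260 of 54835 genes). For 11 d WD leaves against 11 d controls, members called lower numbered 4 with no replicate block (4881 of 54835 genes) and 6 with DESeq2 (9.42% of all genes). They numbered 6 with the likelihood ratio test (5108 of 54835 genes) and 0 with the 2 groups fitted alone (1 of 50382 genes). With single libraries left out they numbered 0 to 15, and 0 to 1 were then called higher. The 15 were without 11 d control replicate 1 (12.4% of all genes). For 11 d WD against 5 d WD leaves, members called higher numbered 3 with no replicate block (232 of 54835 genes) and 56 with DESeq2 (1.83% of all genes). They numbered 48 with the likelihood ratio test (943 of 54835 genes), 1 without the filter (170 of 76322) and 1 on unstranded counts (169 of 55469). With the 2 groups fitted alone, 17 of 195 members tested were called (203 of 49800 genes). With single libraries left out the number was 0 to 50, the 50 being without 18 d WD replicate 3 (1.27% of all genes). The cause of these moves was not tested. Of the 200 members, TMM scaling kept 46, a window of 0.2 kept 89 and one of 0.5 kept 78 (by construction, since other genes enter the 200), and leaving out single libraries kept 64 to 193, the lowest being without 18 d WD replicate 3. No member was kept in all 21 settings. Changes of direction were all in uncalled values: with single libraries left out, the log2 change for 18 d against 11 d controls was -0.35 to 1.56 in BnaA05g34850D and -1.14 to 0.56 in BnaA02g35010D. For 11 d WD leaves against controls it was -0.25 to 0.68 in BnaA09g31080D and -0.79 to 0.69 in BnaC03g11570D, which had -0.10 with the groups fitted alone. For 11 d WD against 5 d WD leaves it was -0.36 to 0.34 in BnaA02g35010D and -0.15 to 0.54 in BnaA09g31080D.

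The replicate numbers did not pair the samples: deviations of same-numbered libraries from their group means correlated at -0.346 to 0.353 (mean -0.0086, 84 pairs), and 9 of 24 libraries correlated best with one of their own number. With no replicate block, 189 members were called higher in 18 d WD against 5 d WD leaves (4774 of 54835 genes). In 18 d against 11 d controls 0 members were called (1 gene higher of all tested). Lower calls in 11 d WD leaves against controls numbered 4 (4881 genes), and higher calls in 11 d WD against 5 d WD leaves numbered 3 (232 genes). Depth of 13263953 pairs or more leaves the lowest members with single pairs at 5 d, so their ratios have wide counting intervals.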
